A study of Mus musculus with 43 samples.

Results

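Skeletal muscle of Irs1 knockout mice fed ad libitum (KOAL) was compared with that of wild type mice on the same diet (WTAL). The comparison covered 14383 of the 42349 entries in the deposited table, which were those with the status OK in both groups and an FPKM of at least 1 in one of them. FPKM is a read abundance scaled to transcript length and to the reads mapped. WTAL mice were Irs1+/+ and KOAL mice carried the global Irs1-/- deletion, so that loss of the gene was not limited to muscle. All mice were female, were 15 months of age and ate the same chow. The labels give 3 libraries for KOAL and 2 for WTAL. Muscle of mice under 30% dietary restriction (DR) for 12 months, wild type (WTDR, 3 libraries) and Irs1-/- (KODR, 3 libraries), was used to set the same contrast in libraries that the AL contrast did not share. Which muscle was taken is not given in the sources used here. The table holds 1 value per entry and group, as the authors' software estimated it, with a 95% interval, so that every level below is the authors' value for the group. Values per library and depth were not used here, and bulk RNA cannot separate fewer cells of a type from less RNA per cell.

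IRS1 is an adaptor protein that passes the signal of the insulin and IGF-1 receptors to PI3 kinase and AKT. In muscle this pathway drives glucose uptake through the transporter GLUT4 and favours protein synthesis, and it restrains FOXO factors, which switch on genes of protein breakdown. Muscle pieces also hold fat cells, vessels, nerve, connective tissue and blood, whose transcripts are measured together with those of the fibres.

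Irs1 lies on the minus strand of chromosome 1 at chr1:82233101-82291416 (GRCm38). Its FPKM in muscle was 6.31 in the group labelled KOAL (95% interval 4.30 to 8.31) and 5.72 in WTAL (2.96 to 8.49), a log2 difference of 0.14 (SE 0.42). Under DR it was 5.82 in the group labelled KODR and 5.48 in WTDR. On AL the groups labelled KOAL and WTAL stood at 5.95 and 4.70 in liver, 3.49 and 2.47 in brain and 5.37 and 2.47 in WAT. The targeted transcript was therefore not lower in any of these groups labelled knockout, and KODR liver, brain and WAT were not used. These values thus do not check the genotype labels, and all directions below are for groups as labelled. A single value over both exons does not show whether the deleted part was transcribed. The tissue label fitted its markers, since 10 skeletal muscle fibre genes summed to 126666 FPKM in KOAL and 127746 in WTAL. Acta1, skeletal muscle actin, stood at 35572.6 and 33235.4.

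A difference was tested on the log2 ratio with a two-sided Wald test and Benjamini-Hochberg adjustment over all 14102 entries above 0 in both groups, at an FDR of 10%. In KOAL muscle 64 entries were up-regulated (0.454% of those tested) and 32 were down-regulated (0.227%). At an unadjusted p under 0.05 there were 279 higher and 170 lower. With each SD divided by the root of the number of libraries, 310 entries (2.20%) were up-regulated and 204 (1.45%) down-regulated. The median log2 difference of all tested entries was -0.05, and 46.9% were higher in KOAL. The median SE was 0.83, so that most differences below a few fold could not be resolved at this precision. Intervals of the 2 groups overlapped for 9 of the up-regulated and 2 of the down-regulated entries. Some intervals were very narrow, and 39 of the 96 called entries had an SD under 10% of the FPKM in a group, compared with 171 of all tested. With narrow SDs raised to the 5th percentile of their group, 20 entries (0.142%) remained up-regulated and 16 (0.113%) remained down-regulated. With a t distribution of 3 degrees of freedom in place of the normal one, 1 entry was up-regulated (Gm20721, a predicted gene with very narrow intervals) and 0 were down-regulated, and 75 and 36 had an unadjusted p under 0.05. The calls thus rest on taking the authors' intervals as known. The calls that remained with raised SDs are filled in the plot of differences against mean level. Of the genes described below, Hba-a1, Hbb-bs, Sfrp5, Serpina3c, Smoc1, Myf6, Pdp2, Elovl6, Ndufs5, Ndufc2, Mrpl57, Mrpl35, Glrx5, Sfxn1, Hoxd9, Psma2, Ptp4a3, Ndn, Igkv2-109, Gm3625, Gm20721, Gm24245, the Snhg1 entry and the Rcan3 entry lost their call with raised SDs.

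**Figure D1:**
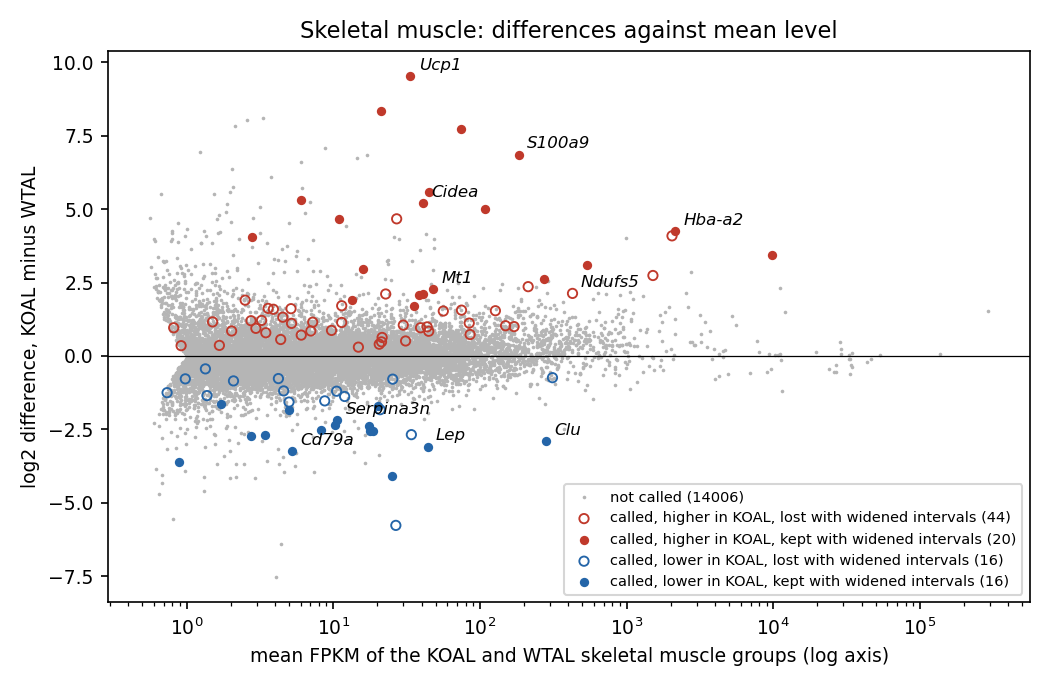
Each point is an entry tested in skeletal muscle, with the mean FPKM of the KOAL and WTAL groups on a log axis and the log2 difference, KOAL minus WTAL, on the vertical axis. Red circles are the 64 up-regulated and blue circles the 32 down-regulated entries at an FDR of 10%, filled where the call remained with widened intervals, and grey points are not called. Ucp1 and S100a9 lie far above most entries of their level, and Lep and Clu lie below.

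Genes of neutrophils and their marrow precursors stood far above WTAL in KOAL muscle. S100a9, a subunit of the neutrophil protein calprotectin, was at 364 FPKM in KOAL (95% interval 64.4 to 663) and at 3.13 in WTAL (0 to 7.86), with 17.3 in KODR and 13.9 in WTDR. KOAL was thus high and the other 3 muscle groups were low. Its log2 difference was 6.86 (SE 1.24). S100a8, its partner subunit, was at 148 in KOAL, 0.703 in WTAL, 8.32 in KODR and 5.79 in WTDR. Lcn2, which encodes the iron-binding lipocalin of neutrophil granules, was at 87.5, 1.84, 7.35 and 3.65 in the same order. Ngp, a neutrophil granule protein, was at 42.1, 0.129, 1.53 and 1.15, and Ltf, which encodes lactoferrin, was at 11.7, 0.294, 1.62 and 0.206. All 5 were up-regulated, with log2 differences of 7.72 (S100a8, SE 1.82), 5.57 (Lcn2, SE 1.17), 8.35 (Ngp, SE 1.90) and 5.32 (Ltf, SE 1.16). For S100a8, Ngp and Ltf the KOAL interval reached down to 0, so that it overlapped that of WTAL. The WTAL intervals of all 5 reached down to 0, so the sizes of these differences are uncertain.

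The other granule genes of the list stood the same way, without a call for those tested. Camp, a cathelicidin, was at 57.8 in KOAL (29.1 to 86.5) and was listed at 0 in WTAL, so that it was not tested. It was at 0.521 in KODR and 1.000 in WTDR. Mpo, the myeloperoxidase of primary granules, was at 17.5 and 0.129 (log2 difference 7.09, SE 3.67). Elane, neutrophil elastase, was at 6.62 and 0.0241, and Mmp8, neutrophil collagenase, was at 2.47 and 0.0202. The mast cell genes of that list did not stand with them, and Mcpt4, a mast cell protease, was at 9.53 in KOAL and 16.8 in WTAL, while Tpsb2, a tryptase, was at 9.58 and 11.1. Over the 13 genes of the neutrophil and mast cell list, 12 could be tested, 8 of them were higher in KOAL and 5 were up-regulated. S100a8, Ngp, Ltf, Mpo, Elane and Mmp8, below 1 FPKM in WTAL, passed the filter only through KOAL. The count of higher genes is thus fixed in part. The summed level of the list was 762 FPKM in KOAL, 43.9 in WTAL, 49.6 in KODR and 45.0 in WTDR. In the other tissues the sums for KOAL and WTAL were 212 and 63.3 in liver, 3.75 and 1.33 in brain, and 64.5 and 49.7 in WAT. In liver S100a9 was at 58.8 and 11.8 (log2 difference 2.32, SE 0.86) and Lcn2 at 126 and 44.2 (1.52, SE 0.63). The part of these cells in other differences was not tested.

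Genes of granulocytes are switched on by factors of the C/EBP family and by PU.1, so the 250 bases before the annotated start of these genes are shown, from the RefSeq promoters of GRCm38.p6. Bases are in lower case, and capitals mark the letters TTGCNNAA (a C/EBP core) or GAGGAAGT (a PU.1 core), searched on both strands. The windows, each read 5′ to 3′ on the strand of the gene, are chr3:90695722-90695971 (minus strand) for S100a9, chr9:110419558-110419807 (plus) for Ngp, chr9:111019042-111019291 (plus) for Ltf, chr2:32387740-32387989 (minus) for Lcn2 and chr3:90668821-90669070 (plus) for S100a8.
S100a9: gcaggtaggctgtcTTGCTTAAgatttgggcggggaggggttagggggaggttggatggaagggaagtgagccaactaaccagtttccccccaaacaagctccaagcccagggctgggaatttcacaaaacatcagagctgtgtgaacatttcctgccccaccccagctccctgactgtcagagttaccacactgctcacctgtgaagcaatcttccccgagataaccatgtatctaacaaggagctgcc
Ngp: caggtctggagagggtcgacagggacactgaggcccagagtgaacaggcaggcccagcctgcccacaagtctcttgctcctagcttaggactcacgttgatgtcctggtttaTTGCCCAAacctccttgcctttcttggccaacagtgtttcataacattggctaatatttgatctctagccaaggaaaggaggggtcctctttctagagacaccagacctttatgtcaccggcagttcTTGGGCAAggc
Ltf: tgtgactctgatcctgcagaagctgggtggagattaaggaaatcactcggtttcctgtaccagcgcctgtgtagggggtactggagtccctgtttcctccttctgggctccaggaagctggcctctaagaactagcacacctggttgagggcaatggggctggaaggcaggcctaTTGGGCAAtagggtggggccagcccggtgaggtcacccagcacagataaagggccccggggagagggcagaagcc
Lcn2: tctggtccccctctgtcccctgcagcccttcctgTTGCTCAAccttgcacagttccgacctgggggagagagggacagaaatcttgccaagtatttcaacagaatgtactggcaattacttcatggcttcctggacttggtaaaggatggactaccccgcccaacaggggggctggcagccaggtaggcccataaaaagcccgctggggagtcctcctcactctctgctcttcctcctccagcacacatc
S100a8: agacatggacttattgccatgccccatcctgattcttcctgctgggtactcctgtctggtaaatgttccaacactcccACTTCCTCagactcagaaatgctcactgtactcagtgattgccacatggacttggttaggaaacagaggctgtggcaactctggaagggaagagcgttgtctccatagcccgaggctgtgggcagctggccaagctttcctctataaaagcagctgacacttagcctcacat
The C/EBP letters were found in 4 of these 5 windows, with 2 matches in Ngp, and the PU.1 letters in S100a8. The windows of Camp and Mpo, not shown, were searched too. That of Camp held neither motif, and that of Mpo held the PU.1 letters only. Of the 12 genes of the neutrophil and mast cell list that had a promoter in the RefSeq table, 5 held the C/EBP letters (41.7%) and 4 the PU.1 letters (33.3%). Among all 27025 genes with a promoter the shares were 10.8% and 2.8%. These are matches of letters, not sites of binding.

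Red cell genes were also higher in KOAL muscle, and here KODR stood with KOAL. Hba-a2, an alpha globin, was at 4083.4 FPKM in KOAL, 213 in WTAL, 7394.5 in KODR and 438 in WTDR. Hbb-bt, a beta globin, was at 963, 113, 1220.9 and 188. The 4 globin genes were up-regulated, with log2 differences from 2.74 (Hbb-bs, SE 0.78) to 4.26 (Hba-a2, SE 1.02). The KOAL intervals of Hba-a1 and Hba-a2 reached down to 0, and those of Hba-a1, Hba-a2 and Hbb-bs overlapped the WTAL intervals. Near-identical globin copies share reads, so that Hba-a1 and Hba-a2 cannot be told apart with confidence. Alas2, the erythroid enzyme of heme synthesis, followed the globins at 49.1 in KOAL, 2.98 in WTAL, 74.1 in KODR and 3.41 in WTDR without passing the test (log2 difference 4.04, SE 2.46). Membrane and nuclear genes of red cell precursors had another order, and were high in KOAL and low in KODR. Slc4a1, the band 3 anion exchanger, was at 13.3 in KOAL, was listed at 0 in WTAL, and was at 0.952 in KODR and 0.525 in WTDR. Hemgn, a nuclear protein of blood precursors, was at 5.12 in KOAL, 0.0193 in WTAL and 0.0463 in KODR. Mki67, which encodes the proliferation antigen Ki-67 and was chosen after its values were seen, was up-regulated and high in KOAL alone, at 5.27 in KOAL, 0.316 in WTAL, 0.113 in KODR and 0.121 in WTDR (log2 difference 4.06, SE 0.89). Of 11 genes found of the red cell list 9 passed the filter and 7 could be tested. All 7 were higher in KOAL and 4 were up-regulated. Hemgn, below 1 FPKM in WTAL, passed the filter only through KOAL, so the count of higher genes is fixed in part. The sums of the list were 11609 FPKM in KOAL, 950 in WTAL, 20287 in KODR and 1554 in WTDR. For KOAL and WTAL they were 13571 and 2681 in liver, 9910 and 1032 in brain, and 4298 and 6864 in WAT.

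The gene with the largest log2 difference among those called was Ucp1, the uncoupling protein of brown fat. It was at 66.9 FPKM in KOAL (95% interval 15.8 to 118), 0.0897 in WTAL (0 to 0.309), 2.05 in KODR and 0.230 in WTDR. KOAL stood apart from the other 3 groups, and the log2 difference was 9.54 (SE 1.85). With a WTAL value this near 0 and no pseudocount, the size of that difference is uncertain. Cidea, a lipid droplet protein of brown fat, was at 79.1 in KOAL, 2.16 in WTAL, 22.8 in KODR and 2.07 in WTDR. Cidea was up-regulated in both diets, with log2 differences of 5.20 (SE 1.11) on AL and 3.46 (SE 1.04) under DR. The other brown fat genes of the list stood far lower. Elovl3, a fatty acid elongase, was at 1.30 in KOAL, was listed at 0 in WTAL, and was at 2.09 in KODR and 0.266 in WTDR, and Otop1, a proton channel, was at 1.02 in KOAL and 0.125 in WTAL. The 6 brown fat genes summed to 150 FPKM in KOAL muscle, 2.92 in WTAL, 30.1 in KODR and 3.48 in WTDR. For KOAL and WTAL they summed to 49.4 and 15.6 in WAT, 4.86 and 6.21 in liver and 36.5 and 28.6 in brain.

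White fat genes did not move together. Of the 15 on the list 7 were higher and 8 lower in KOAL, with a median log2 difference of -0.08, and 3 were down-regulated. Lep, which encodes the fat hormone leptin, was at 9.24 FPKM in KOAL (4.88 to 13.6), 78.7 in WTAL (28.1 to 129), 12.4 in KODR and 4.03 in WTDR, a log2 difference of -3.09 (SE 0.58). WTAL was the high group, and the intervals of the KOAL and WTAL values did not overlap. Sfrp5, a secreted Wnt inhibitor of fat cells, was at 9.21, 59.0, 11.7 and 3.66, and Npr3, the clearance receptor for natriuretic peptides, was at 3.36, 17.1, 2.80 and 1.57. The general fat cell genes did not follow. Adipoq, which encodes adiponectin, was at 198 in KOAL and 321 in WTAL (log2 difference -0.69, SE 0.73). Fabp4, a fatty acid carrier, was at 617 and 654 (-0.08, SE 0.81), and Cfd, the protease adipsin, was at 918 and 476 (0.95, SE 0.68). Under DR all 15 were higher in KODR than in WTDR, with a median log2 difference of 1.83 and 7 calls. The sums of the list were 6058 FPKM in KOAL, 4917 in WTAL, 8120 in KODR and 4006 in WTDR.

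Of 13 tested B cell genes 9 were lower and 4 higher in KOAL (median log2 difference -2.85), and 1 was down-regulated. Cd79a, a signalling chain of the B cell receptor, was at 1.00 FPKM in KOAL, 9.46 in WTAL, 1.93 in KODR and 0.932 in WTDR, and was down-regulated (log2 difference -3.24, SE 0.87). Ighd, the IgD heavy chain of resting B cells, was at 0.888 and 13.8 (-3.96, SE 1.19), Cd79b, the second signalling chain, at 1.90 and 9.48, and Ms4a1, which encodes CD20, at 0.474 and 3.42. These last 3 did not pass the FDR. Ighd and Ms4a1, below 1 FPKM in KOAL, passed the filter only through WTAL, so the count of lower genes is fixed in part. Among the higher members were antibody genes, and Igkc, the kappa light chain, was at 905 in KOAL and 433 in WTAL and Ighm, the IgM heavy chain, at 268 and 139. All 10 tested MHC class II genes were lower in KOAL, with a median log2 difference of -1.76 (range -3.75 to -0.98). Of them 1 was down-regulated, H2-DMb2, a chain of the peptide-loading molecule. H2-DMb2, below 1 FPKM in KOAL, passed the filter only through WTAL. H2-Aa, a class II alpha chain, was at 40.6 in KOAL, 142 in WTAL, 38.0 in KODR and 38.8 in WTDR, so that WTAL was the group that stood apart (log2 difference -1.81, SE 0.60, not called). For the whole T cell and lymph node list 6 of 7 tested genes were lower in KOAL, with sums of 14.8 and 26.1 FPKM and no call.

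**Figure D2:**
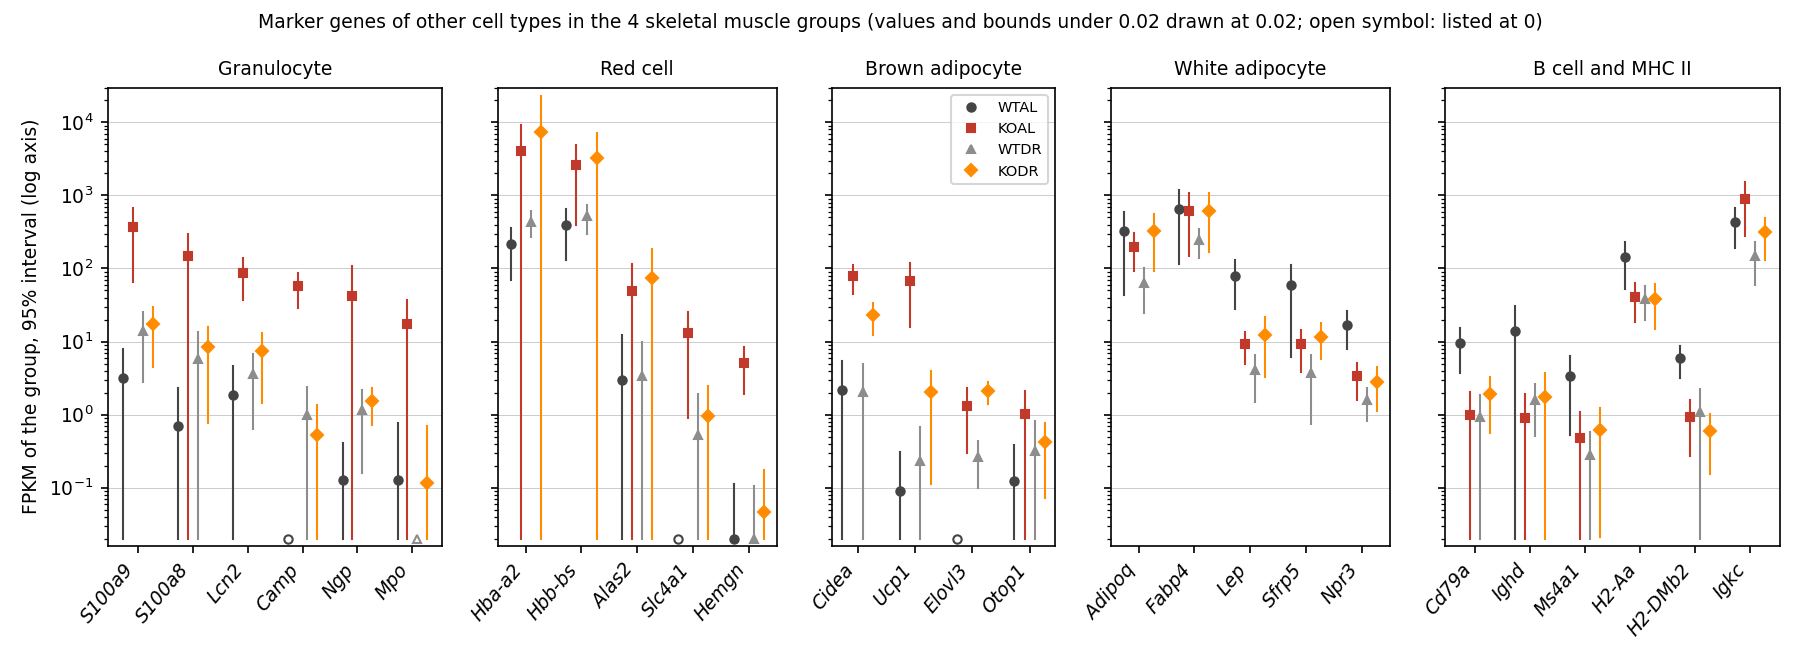
FPKM of the WTAL, KOAL, WTDR and KODR skeletal muscle groups for genes of granulocytes, red cells, brown and white fat cells, and B cells with MHC class II, on a log axis. Points are the authors' group values and bars their 95% intervals, values under 0.02 are drawn at 0.02, and open symbols are listed at 0. KOAL is high for the granulocyte genes (S100a9 at 364) and Ucp1 (66.9), KOAL and KODR are both high for the globins, and WTAL is high for Lep (78.7) and Cd79a (9.46).

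Markers of other cells of a muscle sample showed no call at the FDR of 10%. Of 14 macrophage genes tested 10 were higher in KOAL (median log2 difference 0.24), of 11 endothelial genes 7 (0.02), of 9 smooth muscle and pericyte genes 5 (0.05), of 10 Schwann cell genes 6 (0.09) and of 9 fibroblast genes 5 (0.03). All 6 tendon genes tested were higher, with a median of 1.19. Among them Comp, below 1 FPKM in WTAL, passed the filter only through KOAL. The hepatocyte list summed to 75.2 FPKM in KOAL and 30.2 in WTAL, compared with 3299 in WTDR and 151 in KODR, so that its DR contrast was not like its AL contrast.

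No gene of the fibre lists passed the test. Of 15 fast fibre genes 8 were higher in KOAL (median log2 difference 0.04), of 14 slow fibre genes 9 (0.14), of 22 sarcomere and Z disc genes 9 (-0.05) and of 18 genes of excitation-contraction coupling 7 (-0.07). The intervals were wide here, and Tnnt3, fast troponin T, had a log2 difference of 0.04 with an SE of 1.13 at levels of 10984.0 and 10652.3. Myl3, the slow fibre myosin light chain, was at 293 in KOAL and 101 in WTAL (1.54, SE 0.75, not called). Among myogenic factors Myf6, the factor MRF4 of differentiated fibres, was up-regulated at 52.0 FPKM in KOAL (44.0 to 60.0), 26.8 in WTAL (18.5 to 35.2), 47.0 in KODR and 37.4 in WTDR (log2 difference 0.96, SE 0.25). Myod1, the determination factor MYOD, was at 6.43 and 5.64 (0.19, SE 0.23), and Myog, which encodes myogenin, was at 5.58 and 4.20 (0.41, SE 0.75).

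The pathway that IRS1 serves had 0 calls among 35 tested members of the insulin and IGF-1 signalling list, where 14 were higher and 21 lower, with a median log2 difference of -0.15 and a range from -1.14 to 0.49. Slc2a4, which encodes GLUT4, was at 218 FPKM in KOAL and 232 in WTAL (-0.09, SE 0.79). Akt2, the AKT kinase of insulin-responsive tissue, was at 98.6 and 93.6 (0.08, SE 0.72). Irs2, the other main IRS adaptor, was at 12.0 and 15.5 (-0.37, SE 0.48), and Insr, the insulin receptor, was at 10.7 and 11.9 (-0.15, SE 0.63). Among genes downstream of FOXO, Trim63, the ubiquitin ligase MuRF1, was at 315 in KOAL, 860 in WTAL, 111 in KODR and 143 in WTDR (-1.45, SE 0.85, not called). In the list of atrophy, autophagy and growth control 11 of 22 were higher, and Cdkn1a passed the test. Cdkn1a, which encodes the cell cycle inhibitor p21, was at 54.1 in KOAL (37.7 to 70.4), 16.7 in WTAL (9.72 to 23.7), 50.4 in KODR and 16.4 in WTDR. Both groups labelled knockout stood at about the same level and both wild type groups at a lower one, with log2 differences of 1.70 (SE 0.37) on AL and 1.62 (SE 0.33) under DR. In the p53 and stress response list 10 of 17 were higher and Cdkn1a was again the one call.

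Lipid synthesis held 2 calls among 25 tested genes, and 19 of the 25 were higher in KOAL, with a median log2 difference of 0.30. Thrsp, a regulator of lipogenic enzymes, was at 66.2 FPKM in KOAL (34.4 to 98.0), 15.4 in WTAL (10.2 to 20.7), 124 in KODR and 59.7 in WTDR, a log2 difference of 2.10 (SE 0.42). Elovl6, the elongase that makes stearate, was at 5.44, 1.76, 18.3 and 11.5 (1.62, SE 0.47). WTAL was the low group for both. Fasn, the fatty acid synthase, also had WTAL lowest, at 176, 35.2, 497 and 172, with wide intervals and no call (2.32, SE 1.44). Of 31 genes of fatty acid uptake and oxidation 18 were higher and 0 passed the test, and of 24 glucose and glycolysis genes 10 were higher and 0 passed. Pdp2, a phosphatase that activates pyruvate dehydrogenase, was up-regulated at 3.91 (3.44 to 4.37) against 2.03 (1.79 to 2.28), with 2.23 in KODR and 2.70 in WTDR, so that its direction turned under DR. Its SDs were narrow, and the call was lost with widened intervals. Pdk4, the kinase that inactivates the same enzyme, was at 1043.0 in KOAL and 1526.4 in WTAL (-0.55, SE 2.03).

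Nuclear genes of the respiratory chain leaned to higher values in KOAL. Of complex I genes 34 of 37 were higher (median log2 difference 0.45), of complexes II and III 14 of 14 (0.27), of complex IV 14 of 14 (0.60) and of ATP synthase 10 of 16 (0.25), and 2 complex I genes passed the test. Ndufs5, an accessory subunit of complex I, was at 696 FPKM in KOAL (211 to 1182.1), 160 in WTAL (98.7 to 220), 662 in KODR and 402 in WTDR (log2 difference 2.13, SE 0.57). Ndufc2, another accessory subunit, was at 357, 69.7, 261 and 161 (2.36, SE 0.65). For both genes WTAL was the lowest group. Cox8b, the muscle form of a complex IV subunit, was at 1091.4 in KOAL and 577 in WTAL (0.92, SE 0.57). The mitochondrially encoded genes were split, 5 of 10 higher, with a median of -0.03. Under DR the complex I median was -0.01 and 18 of 37 were higher in KODR.

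Ribosomal protein genes leaned the same way on AL, 85 of 90 cytosolic ones being higher (median 0.65) with 1 call, and 63 of 77 mitochondrial ones (median 0.47) with 2 calls. Under DR 83 of the 90 cytosolic genes were higher in KODR (median 0.46), and 52 of the 77 mitochondrial ones (median 0.18). On AL the cytosolic sums for KOAL and WTAL were 26826 and 15130 FPKM in liver, 11524 and 7268 in brain, and 21278 and 15493 in WAT. The cytosolic call was the entry of Rpl23a, a large subunit protein, joined with Snord42b, at 469 in KOAL, 76.6 in WTAL, 239 in KODR and 116 in WTDR (2.61, SE 0.49). The reads of the snoRNA and of its host cannot be separated in that entry. Mrpl57, a protein of the large mitochondrial subunit, was at 15.7, 7.14, 13.7 and 8.70 (1.14, SE 0.28) and was also up-regulated under DR (0.65, SE 0.13). Mrpl35, of the same subunit, was at 9.99, 4.50, 9.92 and 7.22 (1.15, SE 0.33). Against 46.9% of all entries tested, these lists had high shares of higher values. The direction of all entries also moved with transcript length. The longest annotated transcript could be matched for 12864 of the 14102 entries (91.2%). Entries under 500 bases had a median log2 difference of 0.49 and 71.6% were higher in KOAL, while those over 4000 bases had a median of -0.26 and 29.0% were higher. The steps between were 0.30, 0.13 and -0.07, as the plot by transcript length shows. The median length was 694 bases for complex IV, 1004 for cytosolic ribosomal proteins, 1005 for complex I, 1442 for complexes II and III, 1716 for ATP synthase and 1906 for mitochondrial ribosomal proteins. Among members under 1000 bases the median log2 differences were 0.92, 0.66, 0.45, 0.36, 0.28 and 0.72 in the same order. The fourth and the fifth were over 4 genes each. Beside them stand medians of 0.49 for all entries under 500 bases and 0.30 for all entries of 500 to 1000 bases. Under DR the length medians ran from 0.21 to -0.07. What part length has in these lists was not tested.

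**Figure D3:**
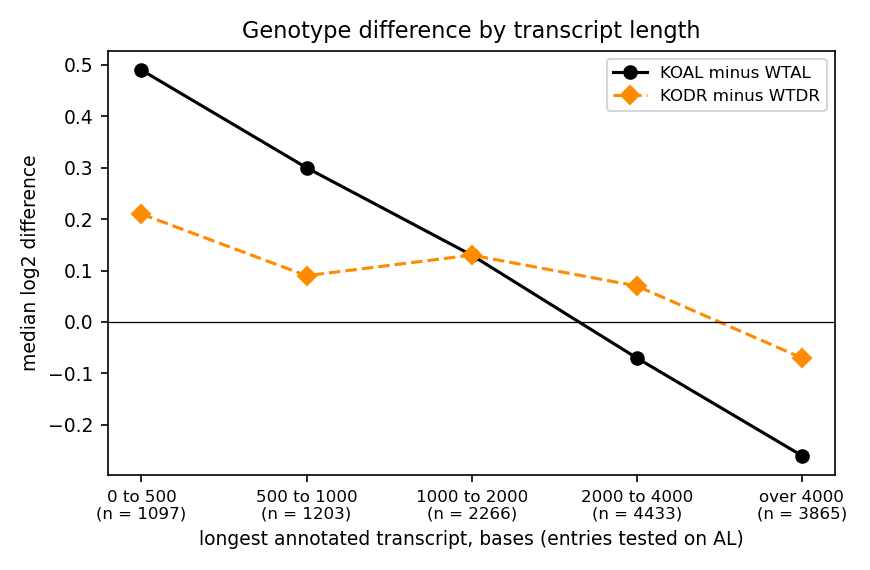
Median log2 difference of the entries tested in muscle, grouped by the length of their longest annotated transcript in bases, with n entries tested on AL under each group. Black circles are KOAL minus WTAL, which fall from 0.49 for the shortest group to -0.26 for the longest, and orange diamonds are KODR minus WTDR for the same entries, from 0.21 to -0.07.

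NRF1 is a factor that binds many promoters of nuclear mitochondrial genes, and GCGCANGC is a core of its palindrome. These letters are in capitals below and were searched on both strands. The complex I and mitochondrial ribosomal protein lists held 4 called genes, and the cytosolic Rpl23a entry is left out here. The letters were found in the 250 bases before the RefSeq start of 3 of the 4 genes. They were Ndufs5 (chr4:123718187-123718436, minus strand), Ndufc2 (chr7:97399753-97400002, plus) and Mrpl57 (chr14:57825989-57826238, plus), shown 5′ to 3′ on the strand of the gene (GRCm38.p6).
Ndufs5: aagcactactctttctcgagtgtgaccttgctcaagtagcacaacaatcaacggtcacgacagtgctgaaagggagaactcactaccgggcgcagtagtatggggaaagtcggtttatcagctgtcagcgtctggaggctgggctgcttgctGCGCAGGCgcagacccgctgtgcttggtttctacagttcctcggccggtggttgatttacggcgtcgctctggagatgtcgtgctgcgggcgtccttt
Ndufc2: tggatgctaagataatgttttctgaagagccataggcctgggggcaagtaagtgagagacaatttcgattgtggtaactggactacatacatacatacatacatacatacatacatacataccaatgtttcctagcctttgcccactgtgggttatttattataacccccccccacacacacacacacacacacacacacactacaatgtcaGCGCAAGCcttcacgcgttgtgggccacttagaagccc
Mrpl57: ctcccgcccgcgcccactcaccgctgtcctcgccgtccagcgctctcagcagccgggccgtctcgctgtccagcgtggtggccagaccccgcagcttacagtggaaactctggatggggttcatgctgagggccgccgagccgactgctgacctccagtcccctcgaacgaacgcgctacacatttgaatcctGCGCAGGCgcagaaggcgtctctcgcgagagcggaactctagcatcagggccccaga
The window of Mrpl35 did not hold them. The letters were in 8 of 31 complex I genes whose promoter could be matched (25.8%), in 18 of 64 of the mitochondrial ribosomal protein list (28.1%) and in 9.4% of all 27025. Of 54 called genes whose promoter could be matched 10 held them (18.5%). Genes with and without the letters were not compared in expression.

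**Figure D4:**
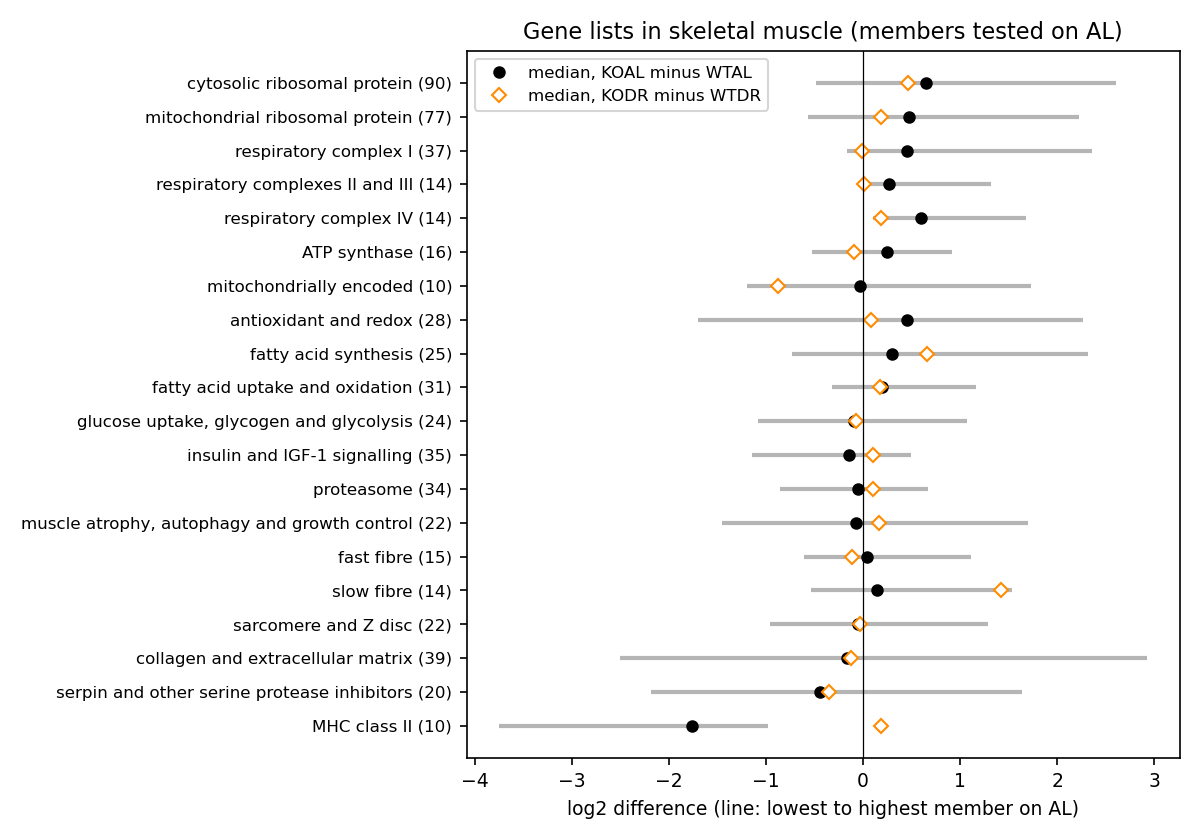
Median log2 difference of 20 gene lists in skeletal muscle, with the number of members tested on AL in brackets. Black circles are KOAL minus WTAL, orange diamonds KODR minus WTDR, and grey lines run from the lowest to the highest member on AL. Cytosolic ribosomal proteins (0.65) and complex IV (0.60) lie to the right, MHC class II (-1.76) lies far to the left on AL and near 0 under DR, and slow fibre genes have a higher median under DR (1.42) than on AL (0.14).

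Redox genes gave 2 up-regulated and 1 down-regulated member of 28, with 20 higher and a median log2 difference of 0.45. Mt1, the metal-binding metallothionein 1, was at 79.6 FPKM in KOAL (37.0 to 122), 16.5 in WTAL (11.0 to 21.9), 70.7 in KODR and 13.7 in WTDR. Its log2 differences were 2.27 (SE 0.45) on AL and 2.37 (SE 0.67) under DR, both called, and both knockout groups stood above both wild type groups. Glrx5, a mitochondrial glutaredoxin of iron-sulfur cluster assembly, was at 112, 37.9, 141 and 67.9 (1.56, SE 0.43). Sod3, the extracellular superoxide dismutase, was at 9.60 in KOAL, 31.1 in WTAL, 8.03 in KODR and 4.62 in WTDR (-1.70, SE 0.38), with WTAL as the high group.

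Several secreted proteins were down-regulated in KOAL. Of 39 tested collagen and matrix genes 24 were lower and 2 were down-regulated. Thbs2, thrombospondin 2 of the matrix, was at 2.19 FPKM in KOAL (1.50 to 2.88), 7.88 in WTAL (5.63 to 10.1), 1.88 in KODR and 1.39 in WTDR (log2 difference -1.85, SE 0.31). Wisp2, a secreted protein of the CCN family, was at 2.46, 14.0, 3.23 and 1.09 (-2.51, SE 0.63). Of 20 protease inhibitors 16 were lower and 2 were down-regulated. Serpina3n, an acute phase serpin, was at 3.86, 17.5, 5.84 and 3.95 (-2.19, SE 0.34), and Serpina3c, a related serpin, was at 2.52, 7.47, 6.91 and 1.66 (-1.57, SE 0.33). In these 4 genes WTAL was the highest of the 4 muscle groups. Clu, which encodes the secreted chaperone clusterin, was at 66.6 in KOAL, 496 in WTAL (36.1 to 956), 75.3 in KODR and 123 in WTDR (-2.90, SE 0.78), and its intervals overlapped. Chosen after their values were seen, Bmp3, a secreted member of the TGF-beta family, was at 0.731 in KOAL and 4.78 in WTAL (-2.71, SE 0.69), and Vgll3, a cofactor of TEAD factors, at 0.847 and 2.61 (-1.62, SE 0.31).

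A few further genes passed the test outside these groups. Psma2, an alpha subunit of the proteasome core, was at 24.9 FPKM in KOAL (23.9 to 25.8), 17.8 in WTAL (15.2 to 20.4), 27.5 in KODR and 28.6 in WTDR (log2 difference 0.48, SE 0.11). It was the one call of 34 proteasome genes, of which 16 were higher. Ptp4a3, a protein tyrosine phosphatase, was at 228, 114, 211 and 168 (1.00, SE 0.19), with WTAL lowest. H2-Q10, a class I gene best known from liver, was at 28.5, 3.64, 39.8 and 56.3 (2.97, SE 0.79), again with WTAL lowest. Ndn, the imprinted gene of necdin, was down-regulated at 3.12, 5.34, 3.41 and 3.48 (-0.77, SE 0.22), with WTAL highest, and was the one call of 14 imprinted growth genes. Igkv2-109, an antibody light chain segment, was at 52.1 in KOAL, 2.05 in WTAL and 1.36 in KODR, was listed at 0 in WTDR, and was up-regulated (4.67, SE 1.32). The clock list (8 of 18 higher), the immediate early list (11 of 19), the heat shock and chaperone list (13 of 18), the neuromuscular junction list (7 of 10) and the interferon list (9 of 20) held 0 calls.

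Small RNA entries had large and uneven values. The libraries were made from RNA selected for a poly(A) tail, and short reads were filtered out. How far the values of these entries follow the levels of such RNAs was not tested. n-R5-8s1, a 5.8S ribosomal RNA copy, was at 17938.5 FPKM in KOAL (2839.8 to 33037.1), 1656.9 in WTAL, 6813.2 in KODR and 1527.1 in WTDR (log2 difference 3.44, SE 0.75). The joined entry of Snord1a, Snord1b and Snord1c with 1810032O08Rik, a set of box C/D snoRNAs and their host, was at 209 in KOAL, 6.47 in WTAL, 3.58 in KODR and 2.37 in WTDR (5.02, SE 1.07). Of 49 snoRNA and Cajal body RNA entries tested 31 were higher and 4 were up-regulated. A further 281 of the 14383 entries were listed at 0 in one group and got no test, 223 of them in WTAL and 58 in KOAL. The highest were the mitochondrial tRNA genes mt-Tt (934 in KOAL) and mt-Ty (852 in KOAL), both listed at 0 in WTAL, and Ighj4, an immunoglobulin joining segment at 455 in WTAL and listed at 0 in KOAL.

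Entries that join a protein gene with a miRNA were among those with the largest fall. The entry of Rcan3, a calcineurin regulator, with Mir700 was at 0.961 FPKM in KOAL, 52.5 in WTAL, 61.0 in KODR and 1.14 in WTDR. It was thus high in WTAL and KODR and low in the other 2 groups, with log2 differences of -5.77 (SE 1.67) on AL and 5.74 (SE 1.54) under DR. The entry of Prmt2, an arginine methyltransferase, with Mir678 was at 2.78, 47.9, 2.73 and 1.94 (-4.10, SE 0.74). A single value cannot show whether the miRNA or the protein gene carried either difference.

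The same contrast under DR used none of the AL libraries. Of the 61 up-regulated entries with a DR value, 48 were also higher in KODR than in WTDR (67.7% of all entries higher on AL were), 16 were called in the same direction and 4 in the other. Their median log2 difference under DR was 0.61. Of the 30 down-regulated entries with a DR value, 8 were also lower in KODR and 22 were higher, where 58.3% of all entries lower on AL were lower again. Their median DR difference was 0.53, and 1 was called the same way and 3 the other way. In the DR contrast itself 124 entries (0.884%) were up-regulated and 189 (1.35%) down-regulated. WTAL was the highest of the 4 muscle groups for 28 of the 32 down-regulated entries, and KOAL was the highest for 36 of the 64 up-regulated ones. These counts are fixed in part by the choice of the entries on AL. The entries called higher in both diets included Cdkn1a, Mt1, Cidea, Hba-a1, Hbb-bt and Mrpl57. Chosen after their values were seen, Sfxn1, a mitochondrial serine carrier, was at 7.77 in KOAL, 2.54 in WTAL, 7.74 in KODR and 1.86 in WTDR, and Hoxd9, a homeobox gene of limb patterning, was at 12.6, 6.88, 14.0 and 7.55. For both, the 2 knockout groups lay above the 2 wild type groups. Smoc1, a calcium-binding matrix protein also chosen after its values were seen, turned round, from 4.51 in KOAL and 13.0 in WTAL to 9.22 in KODR and 3.12 in WTDR, and both differences were called (-1.53, SE 0.38 and 1.56, SE 0.41).

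**Figure D5:**
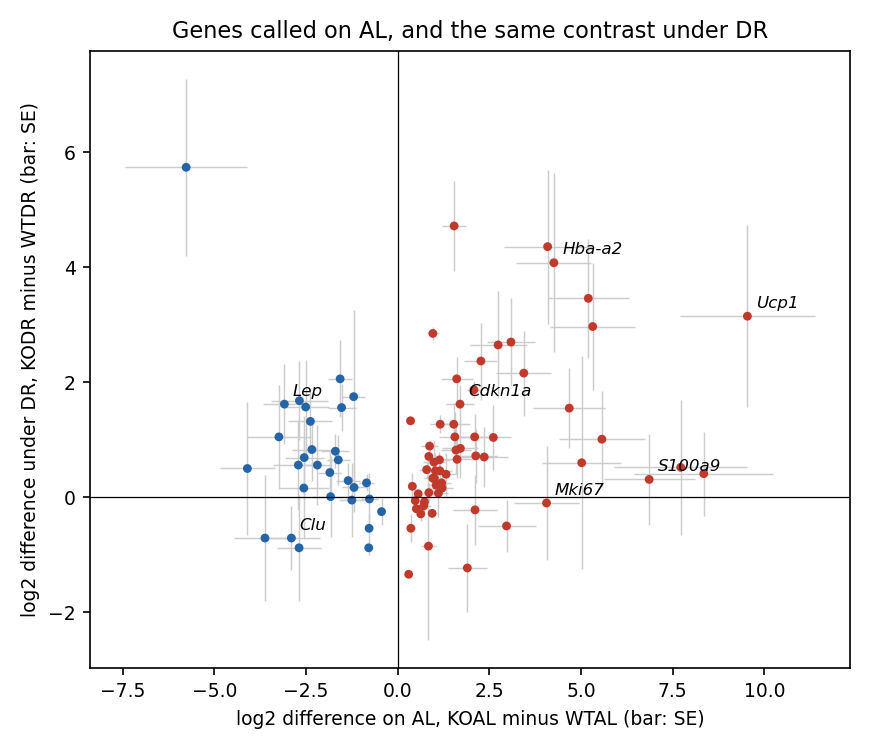
Log2 difference on AL (KOAL minus WTAL) on the horizontal axis and under DR (KODR minus WTDR) on the vertical axis for the called entries that have a DR value, with bars of 1 SE. Of the red, up-regulated entries 48 of 61 lie above 0 on the vertical axis, and of the blue, down-regulated ones 22 of 30 do. S100a9 and Mki67 lie near 0 under DR, while Hba-a2 and Cdkn1a keep a difference of like size.

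The difference between diets was tested directly, as the AL log2 difference less the DR one, in the 4 muscle groups. Of 13979 entries 50 passed the FDR of 10% (0.358%), among them 13 of the up-regulated and 14 of the down-regulated entries. The AL difference by which entries were called is part of this test, so these counts of called entries are fixed in part by that choice. The largest differences between diets for the fat and matrix genes were Lep at -4.71 (SE 0.91), Sfrp5 at -4.36 (SE 1.03) and Wisp2 at -4.08 (SE 1.02). S100a9 gave 6.55 (SE 1.47) and Ngp 7.94 (SE 2.03). For Cdkn1a the difference between diets was 0.07 (SE 0.50) and for Mt1 -0.09 (SE 0.81), so that for these 2 it was not resolved from 0. For Ucp1 it was 6.39 (SE 2.43) and did not pass the test.

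Against the other tissues on AL, the muscle difference departed from that in WAT for 41 of 13935 entries (0.294%), from that in liver for 7 of 13289 (0.0527%) and from that in brain for 2 of 13460 (0.0149%), which were Gm3625 and Gm8034, both predicted genes. Of the up-regulated entries with a value in the other tissue, 40 of 62 were also higher in KOAL in WAT, 39 of 55 in liver and 32 of 55 in brain, beside 44.8%, 62.2% and 58.8% of all entries tested in both tissues. Of the down-regulated entries 21 of 28 were also lower in WAT, 11 of 25 in liver and 16 of 27 in brain, beside 55.2%, 37.8% and 41.2% of all entries tested in both. S100a8, Ucp1, Mt1, Cdkn1a, Hba-a2 and Hbb-bt were among those that departed from WAT. Their muscle difference, by which they were called, is part of that test. In liver and brain the log2 differences were 2.44 (SE 0.78) and 3.85 (SE 1.15) for Hba-a2, 2.04 (SE 0.57) and 1.95 (SE 0.80) for Hbb-bt and 1.29 (SE 0.56) and 1.23 (SE 0.71) for Mt1. For Cdkn1a they were 2.10 (SE 0.66) in liver and 0.16 (SE 0.80) in brain. Tissues may come from the same mice, which the labels do not say.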

How the data were processed

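RNA-seq of poly(A) RNA had been run on an Ion Proton in 43 libraries of 16 groups. Per the submitters' processing notes reads were trimmed with cutadapt 1.5, and the study's methods give alignment to GRCm38 with BBmap. The authors then ran Cuffdiff 2.2.1, which pooled the libraries of a group into 1 FPKM with a 95% interval, and these FPKM values were deposited. The file had 24 further value columns for groups that were not used. The 16 groups were named by the labels. From the deposited values the SD was taken as the upper bound less the FPKM, divided by 2, and log2 ratios were tested with no pseudocount by a two-sided Wald test (delta method, normal reference, Benjamini-Hochberg over all entries tested, FDR of 10%), in Python 3.11.15 with numpy 2.4.6, pandas 2.3.3 and scipy 1.17.1. The study's methods state that Cuffdiff estimated a dispersion between replicates for each condition. The spread between mice itself cannot be computed from the intervals of a pooled value, and depth per library is unknown. The test was checked on simulated data. These were drawn with the deposited SDs taken as known, so they do not check the widths of the intervals. The gene members and lists were chosen with earlier results of these data known. Named genes were Irs1, list members (called ones and up to 4 others with the highest mean), called entries with the largest difference (up to 15 per direction) or highest mean (up to 10), and up to 5 per direction listed at 0. Elane, Mmp8, Cd79b, Ms4a1, Irs2 and Insr were added after their values were seen. Alternatives were an FDR of 5%, a smaller SD, a t distribution, a linear difference, interval overlap, pseudocounts of 0.1 and 1, no minimum or 5 FPKM, a 2-fold minimum, centring, no joined entries and, chosen after the data were seen, raised narrow SDs. Promoters were those of RefSeq on GRCm38.p6, their motifs were chosen after the values were seen, and a longer NRF1 motif, searched first, was in fewer promoters, called genes included, and transcript lengths those of the GRCm38 annotation.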

Additional observations from a re-analysis of the deposited data

Results flagged for a closer look

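In skeletal muscle 20 of the genes named by rule differed between diets by the test of the difference itself. On AL 243 of the named genes were tested, and over all entries 50 of 13979 (0.358%) differed between diets. The AL difference, by which some of the genes were named, is part of the test, so the count is fixed in part by that choice. The test takes the KOAL less WTAL log2 difference minus that of KODR less WTDR. The values were positive for S100a9 at 6.55, for Ngp at 7.94, for H2-Q10, a class I gene best known from liver, at 3.47 and for Pdp2 at 1.22. They were positive as well for the hepatocyte genes Alb at 6.71, Apoa1 at 5.66, Apoa2 at 4.87 and Apoc1 at 5.36. Alb, serum albumin, stood at 987 FPKM in WTDR and 5.52 in WTAL, and Apoa1, the main apolipoprotein of HDL, at 653 and 3.66. The values were negative for Lep at -4.71, Sfrp5 at -4.36, Wisp2 at -4.08, Npr3 at -3.18, Serpina3c at -3.62, Sod3 at -2.49 and Thbs2 at -2.28. They were negative too for Cep85l, a centrosomal protein gene, at -3.25, for the entry of Smurf2, a ubiquitin ligase, with Gm27322 at -3.70, for the entry of Snhg1 with its snoRNAs at -3.18 and for Mbp, myelin basic protein, at -4.05. The entry of Rcan3 with Mir700 gave -11.52. With raised SDs the differences of Cep85l, the Snhg1 entry and Pdp2 no longer passed the test.

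Between tissues on AL, the muscle difference less the WAT difference was positive for S100a8 at 9.21, Ucp1 at 7.89, S100a9 at 6.78, Hba-a2 at 4.93, n-R5-8s1 at 3.81, Hbb-bt at 3.74, Mt1 at 3.50 and Cdkn1a at 2.37. It was negative for Ckmt2, the mitochondrial creatine kinase of muscle, at -7.10, for the Rcan3 entry at -6.30, Ighd at -5.23, the entry of Prmt2 with Mir678 at -4.02, Cd79a at -4.01 and Elovl6 at -2.47. The log2 difference of Ckmt2 was -0.57 in muscle (SE 0.66, not called) and 6.53 in WAT (7.06 FPKM in KOAL, 0.0764 in WTAL). Elovl6 was higher in KOAL in both tissues, at 1.62 in muscle and 4.10 in WAT. Less the liver difference the values were 3.76 for Thrsp, 1.91 for Pdp2, -2.74 for Serpina3n and -2.20 for Gm24245, a predicted small RNA gene. Less the brain difference the value of Gm3625 was -1.85. With raised SDs those of Pdp2, Serpina3n and Gm24245 against liver, of Gm3625 against brain and of the Rcan3 entry against WAT no longer passed the test. The AL difference in muscle is part of these tests between tissues too, and some of the genes were named by it. What lies behind these differences was not tested.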

How the results depend on the processing

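On AL 64 entries were up-regulated and 32 down-regulated, 313 were called under DR, 50 differed between diets, and 7, 2 and 41 departed from liver, brain and WAT. With each SD divided by the root of the number of libraries these counts were 310, 204, 1505, 330, 67, 81 and 331. With a t distribution they were 1, 0, 10, 3, 1, 0 and 2. With narrow SDs raised they were 20, 16, 202, 31, 4 and 0, and for WAT 34. A pseudocount of 0.1 gave 288, 90, 634, 297, 252, 250 and 288, and a pseudocount of 1 gave 257, 76, 595, 264, 203, 210 and 227. Of the 378 entries called on AL with a pseudocount of 0.1, 240 were listed at 0 in a group, where the interval has no width. A test of the linear FPKM difference called 134 up and 50 down. An FDR of 5%, a minimum of 5 FPKM, no minimum, a 2-fold minimum, interval overlap, centring and leaving out joined entries kept each of these counts within 1.5 times, where they gave one. Centring on the median of -0.05 turned 6 genes that were not called to just above 0, B2m (0.01), Cacna1s (0.01), the Cpt1b entry (0.05), Peg3 (0.04), Psmb4 (0.01) and Tpm1 (0.00). No paired analysis was possible because the deposited table holds 1 value per group and none per library, and for the same reason no library could be left out.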
